A study of Homo sapiens with 2 samples.

Results

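The 9 genes described here encode the parts of a DNA-binding complex built around the transcription factors TAL1 and LMO2. They were chosen by name and found by gene number in the deposited tables. All 9 of 9 were listed in both libraries, among 18518 genes in all, and all passed the minimum of 10 counts in 1 library or more. The RNA came from day 3 of a culture that drives H1, a widely used human embryonic stem cell line, towards blood. The first library came from H1 cells labelled MEIS1-/-, and the other from H1 cells labelled wild type. In both, a first step of 2 days used activin A at 40 ng/ml with BMP4 at 50 ng/ml. The next step, in which day 3 lies, used VEGF at 40 ng/ml with bFGF at 50 ng/ml. The labels did not say whether the MEIS1-/- cells were 1 clone, nor which part of MEIS1 was deleted.

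TAL1 is a basic helix-loop-helix (bHLH) protein that binds DNA as a dimer with a broadly expressed E protein, encoded by TCF3, TCF4 or TCF12. LMO2 does not bind DNA itself. It is a bridge of LIM domains that joins the TAL1 and E protein dimer to GATA factors on the same stretch of DNA, and it binds LDB1. In mouse embryos, loss of TAL1 or LMO2 abolishes blood formation and disturbs the remodelling of blood vessels. LYL1 is a close relative of TAL1, LMO4 a relative of LMO2 that also binds LDB1, and CBFA2T3 (ETO2) a corepressor that joins the complex through E proteins.

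GATA factors and bHLH dimers read short motifs in DNA. The upstream windows of TAL1, LYL1 and CBFA2T3 are shown, as examples from the 8 members that had RefSeq sequence here. Each window is the 250 bases before a RefSeq start, 5′ to 3′ on the strand of the gene, in build GRCh38.p14. The TAL1 window, before the more upstream of its 2 RefSeq starts in the table, lies at chr1:47232336-47232585, the LYL1 window at chr19:13102859-13103108 and the CBFA2T3 window at chr16:88941351-88941600, all on the minus strand. Capitals mark GATAA, the core of sites for GATA factors, on either strand (TTATC on the other) and CANNTG, the E-box read by bHLH dimers.
TAL1: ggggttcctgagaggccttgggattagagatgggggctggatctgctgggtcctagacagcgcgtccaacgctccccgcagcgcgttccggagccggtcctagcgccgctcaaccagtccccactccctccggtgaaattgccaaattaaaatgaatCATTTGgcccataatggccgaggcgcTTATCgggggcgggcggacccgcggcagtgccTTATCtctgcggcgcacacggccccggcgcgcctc
LYL1: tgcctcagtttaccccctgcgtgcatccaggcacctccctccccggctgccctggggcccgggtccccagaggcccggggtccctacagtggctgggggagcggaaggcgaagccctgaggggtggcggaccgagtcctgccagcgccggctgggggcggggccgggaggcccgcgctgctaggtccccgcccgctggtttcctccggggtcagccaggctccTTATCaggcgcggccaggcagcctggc
CBFA2T3: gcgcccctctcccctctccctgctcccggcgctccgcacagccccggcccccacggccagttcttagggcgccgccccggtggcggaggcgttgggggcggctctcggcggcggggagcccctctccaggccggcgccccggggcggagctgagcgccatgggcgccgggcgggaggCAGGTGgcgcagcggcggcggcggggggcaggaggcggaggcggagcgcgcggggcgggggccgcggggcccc
The TAL1 window shown held 2 GATAA matches, whose first bases lay 67 and 35 bases before the start, and 1 E-box 93 bases before it. The window before the other TAL1 start held neither motif. The LYL1 window held 1 GATAA match, 27 bases before the start, and no E-box. The CBFA2T3 window held 1 E-box, 73 bases before the start, and no GATAA. None of these matches overlapped another. RefSeq gave 23 such windows for 8 of the 9 members, of which 10 belong to TCF4, and LMO2 had none. GATAA was found in 4 of the 23, against 20.4% of 35116 windows of all genes, and E-boxes in 10, against 61.8%. At least 2 GATAA matches, as in TAL1, were found in 3.87% of all windows. TGACAG, a core sequence bound by MEIS proteins, was found in 2 of the 23, 1 of LMO4 and 1 of TCF4, against 13.0% of all. A match gives letters only, and binding was not measured.

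The comparison asks how transcripts of the complex at day 3 differ where MEIS1, a homeodomain factor of early blood cells, has been deleted. TAL1, LMO2, CBFA2T3 and, by less, LMO4 were higher in the library labelled MEIS1-/-, while LDB1 and the E protein genes differed by less than counting error. Each ratio below is that of the MEIS1-/- library over the wild-type library after scaling for depth, with an exact 95% interval for counting error. There was 1 library per genotype, so no test between genotypes could be run and there was no replicate check. A gene is called higher or lower where this interval excludes a ratio of 1. By that rule 4 of 9 members (44.4%) were higher, against 15.4% of 14381 genes compared, and 0 were lower, against 14.7%. LMO2 and CBFA2T3 (22.2% of members) were also at least 2-fold higher, against 2.90% of genes, and 0 at least 2-fold lower, against 2.95%. The median log2 ratio was 0.38 over the members and 0.0032 over all genes compared. The members were chosen with earlier results of these data known, so these shares are descriptive. Intervals also narrow as counts rise. The median count of listed genes was 86 in the MEIS1-/- library and 89 in the wild-type library, and all members but LYL1 and CBFA2T3 had more.

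The MEIS1-/- library held 5296397 counts and the wild-type library 5202847. MEIS1 itself had 68 counts (4.01 FPKM) in the MEIS1-/- library and 89 (5.34 FPKM) in the wild-type library, a log2 ratio of -0.40 (-0.88 to 0.07). The deposited values do not show which part of MEIS1 these reads came from, so its level does not check the label. Endothelial markers were present, with 5184 counts of KDR in the MEIS1-/- library and 4489 in the wild-type library. Of 6 such markers 5 were higher, and ETV2, an early and transient inducer of endothelium, was lower. Their summed level was 226.56 FPKM in the MEIS1-/- library and 178.22 FPKM in the wild-type library. Most of this sum was KDR, with 160.44 FPKM in MEIS1-/- and 141.46 FPKM in wild type. The median log2 ratio of the 6 markers was 1.35, against 0.19 for KDR. Of 8 blood markers 2 were higher, 2 had intervals that included 1 and 4 were below the minimum or not listed. Among these, the globin gene HBE1 had 2 counts in the MEIS1-/- library and 0 in wild type, and HBZ and HBG1 were listed in neither. The 3 primitive streak markers compared were all lower, with a summed list level of 21.3 FPKM in the MEIS1-/- library and 79.96 FPKM in the wild-type library. The 5 pluripotency markers compared were lower as well, with a summed list level of 560.79 FPKM in MEIS1-/- and 754.61 FPKM in wild type. Of 3 fibroblast markers compared 2 were higher, and their list summed to 286.85 FPKM in MEIS1-/- and 136.0 FPKM in wild type, with the collagen gene COL3A1 at 2498 counts in MEIS1-/- and 346 in wild type. Of 4 endoderm markers 1 was higher (APOA1) and 1 lower (SOX17), of 3 cardiac markers compared 1 was higher (NKX2-5), and of 2 neural markers compared 1 was lower (OTX2). Summed levels were 83.49 FPKM in MEIS1-/- and 64.88 FPKM in wild type for endoderm, 52.33 FPKM in MEIS1-/- and 49.27 FPKM in wild type for cardiac, and 8.92 FPKM in MEIS1-/- and 20.72 FPKM in wild type for neural markers. The part of these cell types in the differences below was not tested. In RNA from whole cultures, more cells of a type and more RNA per cell cannot be told apart.

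TAL1 (gene 6886 in the files, chromosome 1) had 347 counts, or 12.97 FPKM, in the MEIS1-/- library, and 196 counts, or 7.46 FPKM, in the wild-type library. FPKM is a level scaled for transcript length and library depth. The exact Poisson intervals of these levels, 11.6 to 14.4 FPKM in MEIS1-/- and 6.45 to 8.58 FPKM in wild type, did not overlap. TAL1 was 1.75-fold higher in the MEIS1-/- library (1.466 to 2.10). It stood above 68.8% of listed genes by FPKM in the MEIS1-/- library and above 55.1% in the wild-type library.

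LYL1 (gene 4066, chromosome 19), which can replace TAL1 in part in mouse blood cells, had 35 counts (3.72 FPKM) in the MEIS1-/- library and 20 (2.17 FPKM) in the wild-type library. The Poisson intervals of the LYL1 levels, 2.59 to 5.17 FPKM in MEIS1-/- and 1.325 to 3.35 FPKM in wild type, overlapped. The ratio was 1.70, but with so few counts its interval ran from 0.97 to 3.17, so a difference was not detectable at this depth. TAL1 exceeded LYL1 per length by 3.49 times in the MEIS1-/- library and 3.44 times in the wild-type library.

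LMO2 (gene 4005, chromosome 11) had 343 counts (40.49 FPKM) in the MEIS1-/- library and 158 (18.74 FPKM) in the wild-type library. The Poisson intervals of its level lay far apart, 36.3 to 45.0 FPKM in MEIS1-/- and 15.9 to 21.9 FPKM in wild type. LMO2 was 2.14-fold higher in MEIS1-/- (1.77 to 2.61), the largest ratio of the 9 after that of CBFA2T3, which rests on far fewer counts. LMO4 (gene 8543, chromosome 1) had 286 counts (9.90 FPKM) in the MEIS1-/- library and 218 (7.69 FPKM) in the wild-type library. LMO4 levels came close to each other, with Poisson intervals that just missed, 8.79 to 11.1 FPKM in MEIS1-/- and 6.70 to 8.78 FPKM in wild type. LMO4 was 1.30-fold higher (1.085 to 1.56), a smaller difference than that of LMO2. LMO2 made up 80.35% of the summed FPKM of both LMO genes in the MEIS1-/- library and 70.9% in the wild-type library.

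LDB1 (gene 8861, chromosome 10), whose protein dimerises and can hold distant enhancers and promoters together, had nearly equal values. It had 523 counts (45.12 FPKM) in the MEIS1-/- library and 520 (45.45 FPKM) in the wild-type library. Its log2 ratio was -0.0067 (-0.18 to 0.17), so the interval excluded differences beyond about 0.18 in either direction on this scale, as far as counting error goes. LDB1 and the LMO genes therefore stood in a different proportion in each library. LDB1 had 0.895 times the summed FPKM of LMO2 and LMO4 in the MEIS1-/- library and 1.72 times in the wild-type library.

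**Figure D1:**
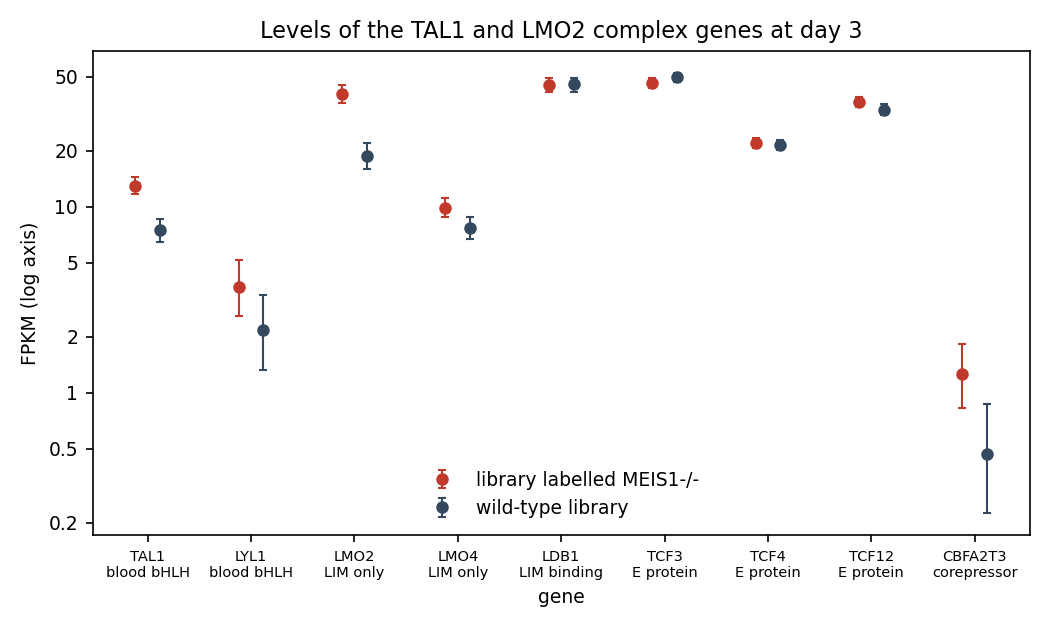
Level of each gene in FPKM on a log axis, with the library labelled MEIS1-/- in red to the left of the wild-type library in dark blue; bars are exact 95% Poisson intervals. TAL1, LMO2 and LMO4 have intervals that do not overlap, LYL1 and CBFA2T3 have the lowest levels and the widest bars, and LDB1 and the E protein genes nearly coincide.

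The E protein genes were the most heavily sequenced members, and their intervals included no difference. TCF3 (gene 6929, chromosome 19), which encodes E12 and E47, had 1085 counts (46.48 FPKM) in the MEIS1-/- library and 1138 (49.59 FPKM) in the wild-type library. Its log2 ratio was -0.08 (-0.21 to 0.04). TCF4 (gene 6925, chromosome 18), which encodes E2-2 and is not the WNT effector of that name, had 947 counts (21.97 FPKM) in the MEIS1-/- library and 908 (21.47 FPKM) in wild type. The TCF4 log2 ratio was 0.05 (-0.09 to 0.18), and in both E protein genes the groups' counting intervals overlapped. TCF12 (gene 6938, chromosome 15), which encodes HEB, had 911 counts (36.67 FPKM) in the MEIS1-/- library and 825 (33.26 FPKM) in the wild-type library. Its log2 ratio was 0.13 (-0.0094 to 0.27), the interval just reaching no difference, and with size factors from DESeq2 the interval lay above it, which made 5 members higher. The 3 genes together had 2943 counts in the MEIS1-/- library and 2871 in the wild-type library, a log2 ratio of 0.02 (-0.05 to 0.10).

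The make-up of the E protein pool differed by a few percentage points. TCF3 gave 44.2% of the summed E protein FPKM in the MEIS1-/- library and 47.5% in wild type. TCF12 gave 34.9% in the MEIS1-/- library and 31.9% in wild type, and TCF4 gave 20.9% in MEIS1-/- and 20.6% in wild type. As a share of E protein counts, which is not corrected for length, TCF3 took 36.9% (exact binomial interval 35.1 to 38.6) in MEIS1-/- and 39.6% (37.8 to 41.45) in wild type. These intervals overlapped, which does not show that the shares were equal. Compared directly between libraries, the interval of TCF3 over TCF12 excluded 1 (0.864, 0.76 to 0.981). That of TCF3 over TCF4 included 1 (0.914, 0.806 to 1.04). The order of the levels, with TCF3 first, TCF12 next and TCF4 last, was the same in both libraries.

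CBFA2T3 (gene 863, chromosome 16) had 27 counts (1.26 FPKM) in the MEIS1-/- library and 10 (0.47 FPKM) in the wild-type library. Both levels were low, above 26.2% of listed genes in MEIS1-/- and above 14.8% in wild type, and their Poisson intervals overlapped slightly, 0.83 to 1.83 FPKM in MEIS1-/- and 0.225 to 0.864 FPKM in wild type. CBFA2T3 was 2.52-fold higher, with a wide interval of 1.25 to 6.19. From FPKM with a pseudocount of 1, which weighs heavily on so low a gene, its log2 ratio was 0.62 in place of 1.33.

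Ordered by FPKM in the MEIS1-/- library, TCF3 stood first, then LDB1, LMO2, TCF12, TCF4, TAL1, LMO4, LYL1 and CBFA2T3. The intervals of TCF3 and LDB1, of LDB1 and LMO2, and of LMO2 and TCF12 overlapped there. In the wild-type library LMO2 was the fifth, after TCF3, LDB1, TCF12 and TCF4, and overlapped TCF4. TAL1 was above LMO4 in MEIS1-/-, with intervals that did not overlap, whereas in wild type LMO4 (7.69 FPKM) and TAL1 (7.46 FPKM) could not be separated.

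**Figure D2:**
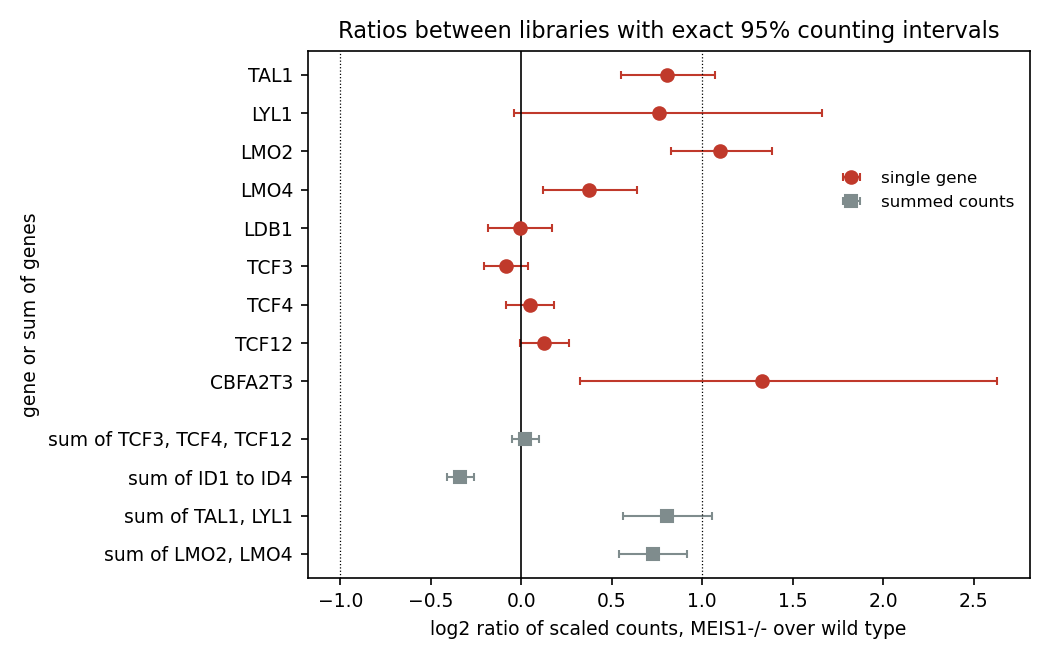
Log2 ratio of scaled counts, MEIS1-/- over wild type, for each gene (red) and for summed counts (grey squares), with exact 95% counting intervals; dotted lines mark 2-fold. TAL1, LMO2, LMO4 and CBFA2T3 lie right of 0, the E protein sum lies at 0.02 and the sum of ID genes lies left of 0 at -0.34.

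The balance between members does not depend on how the libraries are scaled, because both genes of a pair come from the same library. It was compared for 7 pairs as a ratio of count ratios, MEIS1-/- over wild type, with an exact conditional interval. LMO2 over LMO4 was 1.65 times as high in MEIS1-/- (1.27 to 2.16) and LMO2 over LDB1 was 2.16 times as high (1.715 to 2.72). TAL1 over the sum of the E protein genes was 1.73 times as high (1.43 to 2.08). Per length, summed E protein transcripts exceeded TAL1 and LYL1 together by 6.30 times in the MEIS1-/- library and 10.8 times in the wild-type library. TCF3 over TCF12 was lower in MEIS1-/-, with a ratio of 0.864 (0.76 to 0.981). Intervals included 1 for TAL1 over LYL1 (1.01, 0.538 to 1.86), for TCF4 over TCF12 (0.944, 0.827 to 1.08) and for TCF3 over TCF4 (0.914, 0.806 to 1.04). Pairs that share a gene are not independent of each other.

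**Figure D3:**
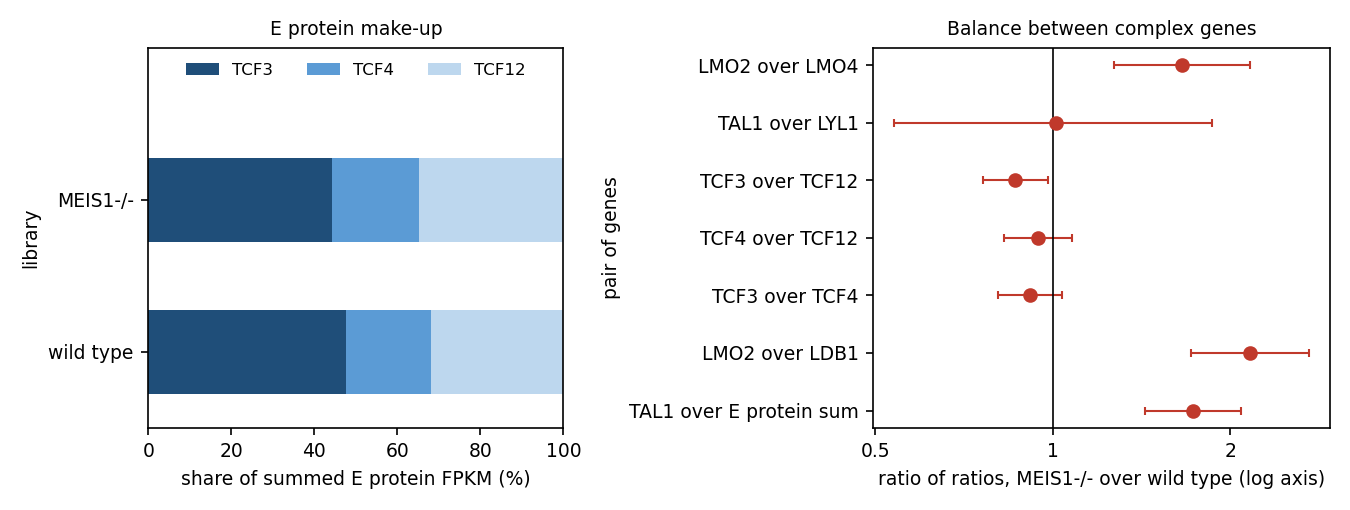
Left, share of summed E protein FPKM held by TCF3, TCF4 and TCF12, with the MEIS1-/- library above wild type; right, ratio of count ratios for 7 pairs on a log axis with exact 95% intervals. LMO2 over LDB1 (2.16) and TAL1 over the E protein sum (1.73) lie right of 1, and TAL1 over LYL1 lies at 1.01 with a wide interval.

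Inhibitors of E proteins were mostly lower in the library labelled MEIS1-/-. Lists of related genes are read against all genes compared, with 15.4% higher, 14.7% lower and a median log2 ratio of 0.0032. ID proteins lack a basic region, so their dimers with E proteins do not bind DNA. ID1 had 804 counts in the MEIS1-/- library and 1042 in wild type, ID3 had 537 in MEIS1-/- and 738 in wild type, and ID4 had 289 in MEIS1-/- and 550 in wild type. These genes were lower, by 1.31-fold (1.19 to 1.44), 1.39-fold (1.24 to 1.555) and 1.92-fold (1.665 to 2.225). ID2 had 913 counts in MEIS1-/- and 850 in wild type, and its interval included 1 (log2 ratio 0.09, -0.05 to 0.22). Of 4 ID genes 3 were thus lower, with a list median of -0.43. Summed ID transcripts came to 372.38 FPKM in the MEIS1-/- library and 461.36 FPKM in the wild-type library, or 3.54 times the E protein sum in MEIS1-/- and 4.42 times in wild type.

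Blood and endothelial factors that bind DNA with the complex were mostly higher. Of 6 genes, GATA2, RUNX1, ERG and FLI1 were higher, GATA3 was lower and GATA1 stayed below the minimum, with 6 counts in MEIS1-/- and 0 in wild type. ERG, an ETS factor of endothelium and blood stem cells, had 195 counts in MEIS1-/- and 93 in wild type, 2.06-fold higher (1.61 to 2.69). GATA2, the GATA factor of blood progenitors that LMO2 can bridge to TAL1, had 688 counts in MEIS1-/- and 256 in wild type. GATA3 had 410 counts in MEIS1-/- and 507 in wild type, a log2 ratio of -0.32. The median log2 ratio of the 5 genes compared was 1.05. Among 42 genes of the lists with at least 50 counts in 1 library, MYB, FLI1 and ERG lay nearest to TAL1 in log2 ratio, within 0.24, and ERG, FLI1 and RUNX1 nearest to LMO2, within 0.17. With 2 libraries this likeness is a single number per gene.

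Genes reported elsewhere as targets of TAL1 complexes, in erythroid, leukaemic or endothelial cells, were also mostly higher. Of 15 genes 12 were compared, of which 8 were higher, 1 lower and 3 had intervals that included 1, with a median log2 ratio of 1.08, or 0.675 with a minimum of 50 counts. Some genes of this list, RUNX1 and CDH5 among them, were counted in another list as well. CDH5, the endothelial junction protein VE-cadherin, had 410 counts in MEIS1-/- and 104 in wild type, 3.87-fold higher (3.14 to 4.89). HHEX, a homeobox factor of early blood and endothelium, had 105 counts in MEIS1-/- and 40 in wild type, 2.56-fold higher (1.79 to 3.84). MYB, needed for definitive blood stem cells, had 93 counts in MEIS1-/- and 49 in wild type, 1.86-fold higher (1.315 to 2.71). KIT, the receptor for stem cell factor, went the other way, with 115 counts in MEIS1-/- and 177 in wild type and a log2 ratio of -0.63.

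GFI1B and KLF1 of that list are named after their values were seen, since both were below the 50 counts asked of other named genes. GFI1B, a repressor of erythroid and platelet precursors, had 14 counts in the MEIS1-/- library and 0 in wild type, at least 4.62-fold higher when wild type is set to 3 counts and the 14 counts are taken as exact. Its exact interval, which allows for error in both counts, began at 3.28-fold. KLF1, the erythroid master regulator, had 16 counts in MEIS1-/- and 5 in wild type. The median of the list was 1.08 also with genes at 0 counts in 1 library placed at such bounds.

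**Figure D4:**
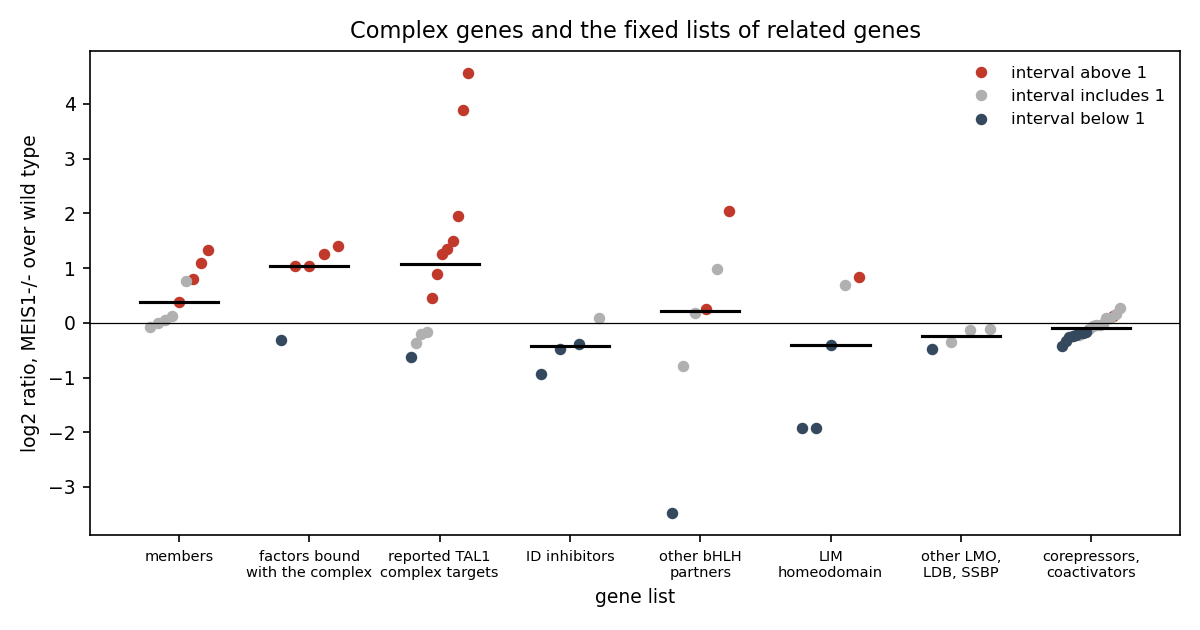
Log2 ratio, MEIS1-/- over wild type, of the 9 complex genes and of each gene compared in 7 lists; black bars are medians and colours give the side of the counting interval. Medians are 1.05 and 1.08 for the factors bound with the complex and the reported targets, -0.43 for ID genes and -0.09 for corepressors and coactivators. The points farthest from 0, such as GFI1B and MESP2, have 0 counts in 1 library, so their plotted values depend on the pseudocount.

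Most genes for other bHLH partners that compete for E proteins had few or no counts, but HAND1 was abundant. Of 29 genes 13 had no row in either table and 10 had too few counts. The 6 compared gave 2 higher, 1 lower and 3 with intervals that included 1, with a median log2 ratio of 0.22. Only HAND1 and HAND2 reached 50 counts, and the midpoint of their log2 ratios was 1.15. HAND1, a factor of extraembryonic and heart mesoderm, had 2767 counts in MEIS1-/- and 2291 in wild type, 1.195-fold higher (1.13 to 1.26). Its level was 300.9 FPKM in MEIS1-/- and 253.65 FPKM in wild type. The list summed to 331.03 FPKM in MEIS1-/- and 269.35 FPKM in wild type. The E protein sum was 105.12 FPKM in MEIS1-/- and 104.32 FPKM in wild type. HAND2, a factor of heart and limb, had 267 counts in MEIS1-/- and 63 in wild type, 4.14-fold higher (3.18 to 5.61).

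Genes whose products share LDB1 with the LMO proteins were mostly lower or within counting error. Of 12 LIM homeodomain genes 4 had no row in either table and 3 had too few counts. Of the 5 compared 3 were lower, 1 higher and 1 included 1, with a median of -0.40. Only LHX1 and ISL1 reached 50 counts, and the midpoint of their log2 ratios was -1.16. LHX1, a homeobox factor of early mesoderm, had 217 counts in MEIS1-/- and 812 in wild type, a log2 ratio of -1.91. ISL1, a factor of heart progenitors, had 217 counts in MEIS1-/- and 284 in wild type, 1.32-fold lower (1.10 to 1.585). Among other LMO, LDB and SSBP genes, 1 of 4 compared was lower and 3 included 1, with a median of -0.24. The lower gene was LDB2, the relative of LDB1, with 694 counts in MEIS1-/- and 956 in wild type, 1.39-fold lower (1.26 to 1.54). SSBP3, whose product protects LDB1 from degradation, had 884 counts in MEIS1-/- and 951 in wild type, a log2 ratio of -0.12 (-0.25 to 0.01). LMO1 had 7 counts in each library, and LMO3 had 4 in MEIS1-/- and 0 in wild type.

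Corepressors and coactivators of the complex differed by small ratios, at most 1.33-fold, and more were lower than higher. All 18 genes were compared, of which 7 were lower, 1 higher and 10 had intervals that included 1, with a median log2 ratio of -0.09. Over all genes compared 14.7% were lower and 15.4% higher. CBFA2T2, a relative of CBFA2T3, had 353 counts in MEIS1-/- and 466 in wild type, 1.33-fold lower (1.16 to 1.54), opposite in direction to CBFA2T3. The acetyltransferase gene EP300 had 1315 counts in MEIS1-/- and 1646 in wild type, 1.26-fold lower (1.18 to 1.36), and SIN3A was 1.20-fold lower (1.07 to 1.35). RUNX1T1 (ETO) had 135 counts in MEIS1-/- and 111 in wild type, with an interval that included 1 (log2 ratio 0.27, -0.11 to 0.64). The 1 higher gene was the histone demethylase gene KDM1A, with 1554 counts in MEIS1-/- and 1405 in wild type, a log2 ratio of 0.13.

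The files gave 1 value per gene, so isoforms could not be separated, but the length column is a mean over isoforms weighted by their estimated abundance. For TCF12, with 5 transcripts in the files, the mean length was 1.62% shorter in the MEIS1-/- library, 4664 bases against 4740 in wild type. For LMO2, with 3 transcripts, it was 1.29% shorter, 1614 bases in MEIS1-/- against 1635 in wild type. Among 3870 genes with several transcripts and at least 100 counts in both libraries, 20.7% differed by at least as much as TCF12 and 25.6% by at least as much as LMO2. Mean lengths of TCF3, TCF4 and LDB1 differed by under 0.5%.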

How the data were processed

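Each deposited table had a row per gene, with its number, transcript names, length, expected count and FPKM. Expected counts are estimated counts, left unscaled by the authors, and FPKM values were scaled by the authors for length and depth, per the file headers. The length column, in bases, is also the authors' own value. Per the submitters' processing notes, BWA, Bowtie, RSEM and hg19 were used, without versions or order, and the labels do not say whether strand was used. Each library started from 2 µg of RNA, per the labels' protocols.

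Absent genes were taken as 0 and expected counts were rounded. TAL1 and TCF4 had counts that were not whole within 0.005 (196.01 and 908.43 in wild type). Counts were scaled by TMM in edgeR 4.0.16 under R 4.3.3, with a ratio of 1.01 between libraries. Log2 ratios added a pseudocount of 1 to each count. Ratio intervals are exact Clopper-Pearson 95% intervals given the summed count, and pair intervals are exact conditional ones (SciPy 1.17.1). All intervals, and the floor of 3 counts, cover counting error only. They treat counts as independent, and PCR copies are not independent molecules, so the intervals may be too narrow even for counting error. No model or test between genotypes was run, because there was 1 library per genotype. The ratio computation was tested on simulated data. Symbols and chromosomes came from RefSeq GRCh38.p14, matched for 18413 of 18518 gene numbers, and the other 105 held 0.193% of counts in MEIS1-/- and 0.181% in wild type. Upstream sequences are RefSeq's in that build, while the files used hg19.

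The members, the 7 lists and the markers were chosen with earlier results of these data known. Named from each list were up to 4 genes with the largest absolute ratios among those with at least 50 counts, all ID genes and ERG, FLI1, GATA2 and RUNX1, with the 3 genes nearest in ratio to TAL1 and LMO2. GATA1, GATA3, KIT, KLF1, GFI1B, KDM1A, LMO1 and LMO3 were added after their values were seen. Alternatives were other scalings, pseudocounts, minimum counts and folds, unrounded counts and FPKM.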

Additional observations from a re-analysis of the deposited data

How the results depend on the processing

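The log2 ratios of the 9 members stayed within their counting intervals under each of 7 alternatives (63 of 63 values). The log2 ratio ran from 0.72 to 0.82 for TAL1, from 1.07 to 1.11 for LMO2 and from 0.62 to 1.37 for CBFA2T3. The sign of LDB1, whose interval included no difference, varied between -0.02 and 0.01. Ratios of the named list genes stayed within their counting intervals in 161 of 161 values, list medians stayed within the typical half-width of their genes' intervals in 62 of 63, and pair ratios stayed within their intervals in 14 of 14. With a minimum of 50 counts, where fewer genes were compared, the median was 0.675 in place of 1.08 for reported targets. For the other bHLH partners it was 1.15 in place of 0.22, where only HAND1 and HAND2 remained. For LIM homeodomain genes it was -1.16 in place of -0.40, where only LHX1 and ISL1 remained. With a minimum of 1 count the LIM homeodomain median was -0.21 and that of other LMO, LDB and SSBP genes -0.13 in place of -0.24. The 2-fold rule called 417 genes higher and 424 lower, 182 and 183 from FPKM with a pseudocount of 1, 161 and 171 with a minimum of 50 counts, and 827 and 893 at 1.5-fold. Those from FPKM needed no interval. Shares of the E protein sum from FPKM with a pseudocount of 1, which corrects for length, were 43.9% in MEIS1-/- and 47.1% in wild type for TCF3, 21.2% in MEIS1-/- and 20.9% in wild type for TCF4, and 34.8% in MEIS1-/- and 31.9% in wild type for TCF12.

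No paired analysis was possible because each genotype had 1 library, and for the same reason no library could be left out. Depth limits LYL1 and CBFA2T3 most, with at most 35 counts in a library. The intervals do not cover differences between cultures, clones or library preparations, which 1 library per genotype cannot show.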

Other observations

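Neighbours here are the nearest genes in the RefSeq gene order that had a row in either library, so genes without a row were skipped. The neighbours of TAL1, LMO2, LYL1 and CBFA2T3 had ratios in both directions, and those of LMO2 stayed close to 1. STIL, a centriole gene beside TAL1, had 424 counts in the MEIS1-/- library and 502 in wild type, 1.196-fold lower (1.05 to 1.365), and CMPK1 beyond it had 563 in MEIS1-/- and 521 in wild type, with an interval that included 1. On the other side of TAL1, CYP4Z1 had 1 count in each library, and CYP4X1 had 60 counts in MEIS1-/- and 30 in wild type, 1.95-fold higher (1.26 to 3.18). CAPRIN1, beside LMO2, had 3159 counts in MEIS1-/- and 2766 in wild type, 1.13-fold higher (1.07 to 1.19). FBXO3, CD59 and NAT10, the other neighbours of LMO2, had intervals that included 1.

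Beside LYL1, TRMT1 had 204 counts in MEIS1-/- and 174 in wild type, with an interval that included 1, and NFIX had 9 in MEIS1-/- and 4 in wild type, below the minimum. NACC1 was 1.30-fold lower (1.19 to 1.42) and DAND5, which encodes a secreted NODAL inhibitor, was 1.805-fold higher (1.18 to 2.885) on 61 counts in MEIS1-/- and 33 in wild type. Near CBFA2T3, GALNS, TRAPPC2L and ACSF3 had intervals that included 1, and LINC00304 had 2 counts in MEIS1-/- and 0 in wild type.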
